A study of Homo sapiens with 6 samples.

Results

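A small group of human miRNAs is read from genes of other small RNAs, or repeats their sequence. Of this kind, 9 mature miRNAs were taken by name: hsa-miR-664a-3p, hsa-miR-664a-5p, hsa-miR-664b-3p, hsa-miR-664b-5p, hsa-miR-1248 and hsa-miR-1291, which lie in small nucleolar RNAs (snoRNAs), hsa-miR-1260a and hsa-miR-1260b, which resemble the 3′ end of leucine tRNA, and hsa-miR-1246, which resembles the spliceosomal U2 RNA. Of these, 8 have a row in the table of 1000 mature miRNAs, while miR-1246 has no row in it. The miRNAs were sequenced from total RNA of HEK 293T cells, an immortalized human embryonic kidney line. The wild type cells (WT) were compared with a TENT3A/B double knockout strain of the same line, which lacks the terminal uridylyltransferases TUT4 (TENT3A) and TUT7 (TENT3B) and is written ΔTUT4/7 here, with 3 biological replicates each. Both strains were untreated, and the knockout was represented by 1 strain, so any further difference of that strain from WT enters every value below.

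snoRNAs of the H/ACA type fold into a pair of hairpins, end a few bases after a short ACA box, and guide the conversion of uridine to pseudouridine in other RNAs together with the protein dyskerin. Most of them are cut out of introns of protein-coding genes. Some are cut further by DICER, and the short products can enter Argonaute like a miRNA. tRNAs receive the bases CCA at their 3′ end after transcription, and fragments of this end are found among small RNAs. TUT4 and TUT7 add uridines to the 3′ ends of pre-miRNAs, mRNAs and other RNAs. The addition of many uridines marks an RNA for decay by DIS3L2, whereas a single uridine helps certain pre-miRNAs through DICER. The comparison asks how the counts assigned to mature miRNAs of this unusual origin differ when both enzymes are missing.

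The mature sequences are shown because the members are defined by them, and because the reads were trimmed to 18 nt, so that the first 18 bases decide to which miRNA a read was assigned. A trimmed read does not show the length of its RNA. Another fragment of the snoRNA or tRNA with the same 18 bases would be counted under the name of the miRNA, and the levels below include any such reads. They were taken from RefSeq (GRCh38.p14) and are written 5′ to 3′ with the seed, bases 2 to 8, in capitals.
hsa-miR-664a-5p: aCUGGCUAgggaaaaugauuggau
hsa-miR-664b-5p: uGGGCUAAgggagaugauugggua
hsa-miR-664a-3p: uAUUCAUUuauccccagccuaca
hsa-miR-664b-3p: uUCAUUUGccucccagccuaca
hsa-miR-1248: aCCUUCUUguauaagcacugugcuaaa
hsa-miR-1291: uGGCCCUGacugaagaccagcagu
hsa-miR-1260a: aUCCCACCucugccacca
hsa-miR-1260b: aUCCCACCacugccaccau
hsa-miR-1246: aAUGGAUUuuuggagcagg
The seed of miR-1260a and miR-1260b is shared, and no other miRNA of the table has it. The seeds of miR-664a-3p and miR-664b-3p differ, as do those of miR-664a-5p and miR-664b-5p. Over their whole length the 3p arms of miR-664a and miR-664b were 79.2% identical and the 5p arms 68.0%.

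The snoRNAs that hold the miRNAs follow, with the mature miRNAs in capitals, to show where in each snoRNA the sequenced piece lies (hg38, gene models of GENCODE 44, in the direction of transcription). SNORA36B lies at chr1:220200546-220200676 on the minus strand, in an intron of RAB3GAP2, which encodes a subunit of a RAB GTPase-activating complex.
SNORA36B: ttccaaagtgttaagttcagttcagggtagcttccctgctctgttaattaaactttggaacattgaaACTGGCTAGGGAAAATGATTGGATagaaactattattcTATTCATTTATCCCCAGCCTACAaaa
SNORA36A lies at chrX:154768528-154768659 on the plus strand, in DKC1, the gene of dyskerin itself. Both of its miRNAs lie in an intron of the DKC1 transcript marked canonical, but overlap an exon in other annotation of the gene.
SNORA36A: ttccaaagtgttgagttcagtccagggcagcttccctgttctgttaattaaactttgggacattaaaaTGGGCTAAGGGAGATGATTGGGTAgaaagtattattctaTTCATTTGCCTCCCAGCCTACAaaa
SNORA81 lies at chr3:186786675-186786852 on the plus strand, in EIF4A2, which encodes an RNA helicase of translation initiation. Its miRNA likewise lies in an intron of the canonical transcript and overlaps an exon in other annotation of the gene.
SNORA81: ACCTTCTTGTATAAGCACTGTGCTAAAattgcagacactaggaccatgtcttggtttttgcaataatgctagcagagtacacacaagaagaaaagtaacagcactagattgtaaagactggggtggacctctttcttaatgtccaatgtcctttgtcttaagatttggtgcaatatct
SNORA2C lies at chr12:48654382-48654518 on the minus strand, in an intron of KANSL2, which encodes a subunit of a histone acetyltransferase complex.
SNORA2C: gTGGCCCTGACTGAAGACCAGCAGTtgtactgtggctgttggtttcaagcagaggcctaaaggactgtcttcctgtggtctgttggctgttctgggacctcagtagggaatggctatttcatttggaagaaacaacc
SNORA36A and SNORA36B are paralogs, identical at 116 of 132 aligned positions (87.9%). In both, the 3p miRNA ends exactly with the ACA box, 3 bases before the end of the snoRNA, and both arms lie in the 3′ part. miR-664a-5p covers bases 68 to 91 and miR-664a-3p bases 106 to 128 of the 131 bases of SNORA36B, and miR-664b-5p and miR-664b-3p cover bases 69 to 92 and 108 to 129 of SNORA36A. By contrast, miR-1248 is the first 27 bases of SNORA81 and miR-1291 covers bases 2 to 25 of SNORA2C, at the 5′ end. SNORA81 has ATA in place of ACA at that distance from its annotated end.

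**Figure D1:**
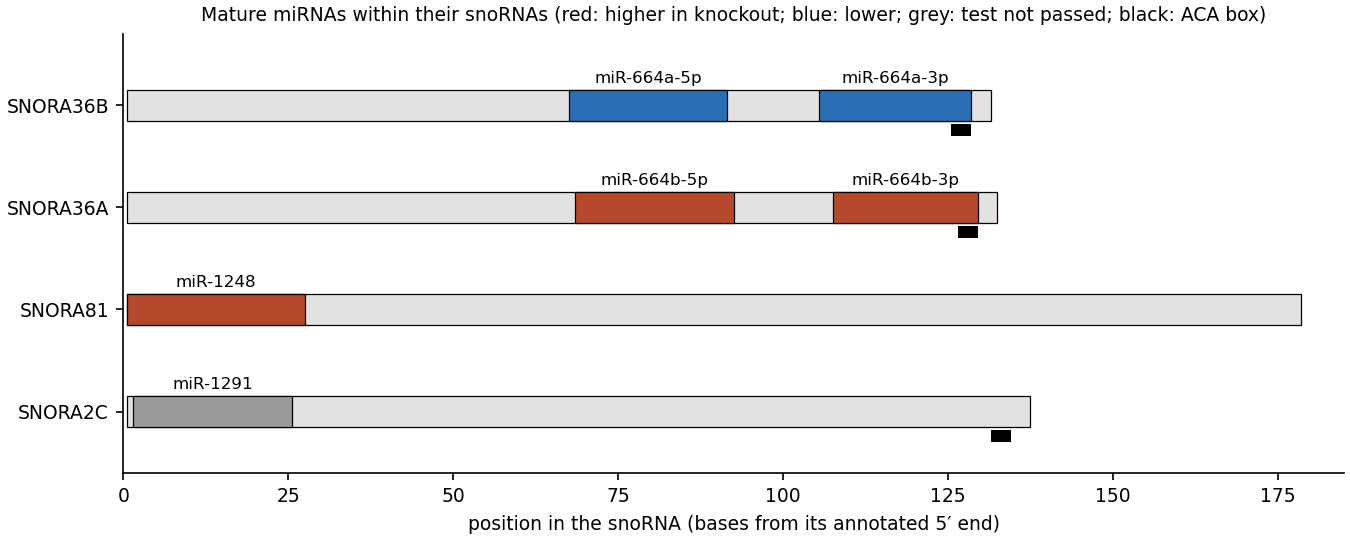
Position of each mature miRNA (coloured box) in its snoRNA (light bar), in bases from the annotated 5′ end of the snoRNA, with the ACA box in black below the bar. Both miRNAs of SNORA36B are blue (lower in ΔTUT4/7), both of SNORA36A and miR-1248 of SNORA81 are red (higher), and miR-1291 of SNORA2C is grey, since it did not pass the test.

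miR-1260a lies at chr14:77266231-77266248 on the plus strand, opposite the untranslated part of exon 4 of the neuroglobin gene NGB, and miR-1260b at chr11:96341447-96341465 on the plus strand, opposite the coding part of exon 1 of MAML2, a coactivator of Notch signalling. Neither position is an annotated tRNA gene. The last 15 bases of leucine tRNA genes of RefSeq are shown for comparison, with the base that corresponds to position 9 of the miRNAs in capitals.
TRL-TAG2-1: atcccaccActgcca
TRL-AAG1-1: atcccaccGctgcca
With the CCA that is added after transcription, the end of TRL-TAG2-1 has the same 18 bases as the start of miR-1260b. Of 443 tRNA genes, 1 had this end, and 11 others, all of leucine tRNAs, differed from miR-1260b by A9G (position counted from the 5′ end of the miRNA, the base of the miRNA first). miR-1260a differs from miR-1260b by T9A and from all 12 of these tRNA ends at 1 position. The first 18 bases of miR-1260a occur at 4 positions of the genome and those of miR-1260b at 5, none of them in a tRNA gene, whose CCA the genome does not encode. Those of miR-664b-3p occur at 2, its own and in SNORA36C (chr2:69520050-69520067 on the minus strand, in AAK1), so reads of these snoRNAs cannot be told apart at this arm. The first 18 bases of miR-664a-3p also occur at 2 positions, while those of miR-664a-5p, miR-664b-5p, miR-1248 and miR-1291 occur once. In the table as a whole, 73.2% of the miRNAs have a single position. The first 18 bases of miR-1246 occur at 21 positions, 20 of which lie in annotated U2 genes or pseudogenes.

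The libraries held 4338558 to 7967606 counts on mature miRNAs, and levels are given in CPM, the count scaled to a common library total. On this scale 3 counts correspond to 0.377 to 0.691 CPM. Of all counts, 0.0666% to 0.0775% in ΔTUT4/7 and 0.0467% to 0.0492% in WT fell on the 8 miRNAs. The share of let-7 with miR-98 was 19.2% to 19.7% in ΔTUT4/7 and 5.57% to 6.36% in WT, and on a scale of shares such a gain lowers the value of every other miRNA. Of 5 miRNAs chosen as typical of the line, miR-10a-5p, miR-10b-5p, miR-92a-3p and miR-196a-5p each exceeded 3995 CPM in every library, while miR-20b-5p stayed at 0 to 0.788 CPM. Of 8 markers of other cell types, miR-124-3p, miR-1-3p, miR-133a-3p and miR-223-3p have no row, miR-122-5p, miR-142-5p and miR-451a reached at most 5.76 CPM, and the sum of those present was 33.5 to 104 CPM. The leukocyte marker miR-142-3p lay at 36.3, 32.9 and 30.9 CPM in ΔTUT4/7 and at 61.7, 49.5 and 96.4 CPM in WT, and its part in the results was not tested. The mRNAs of TUT4 and TUT7 are not part of the measurement, so the knockout itself could not be verified in these libraries.

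Of the 8 miRNAs, 7 had more than 7 counts in at least 1 library and entered the test, which covered 826 miRNAs. Differences were tested with the quasi-likelihood method of edgeR, and p-values were adjusted after Benjamini and Hochberg over all 826. Both arms of miR-664b were increased 2-fold or more in ΔTUT4/7, and both arms of miR-664a were decreased 2-fold or more. Among all tested miRNAs, 16.5% were increased and 13.6% decreased by this rule. Without the 2-fold limit, 3 of the 7 were higher (with miR-1248) and 3 were lower (with miR-1260b), against 23.2% and 21.9% of all tested miRNAs. The strains did not overlap for these 6 miRNAs, 3 higher and 3 lower, as for 28.8% and 29.5% of all tested miRNAs. With 7 miRNAs, these counts describe the group and do not set it apart from the rest. The median log2 fold change of the 7 was 0.50 and that of all tested miRNAs 0.01.

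**Figure D2:**
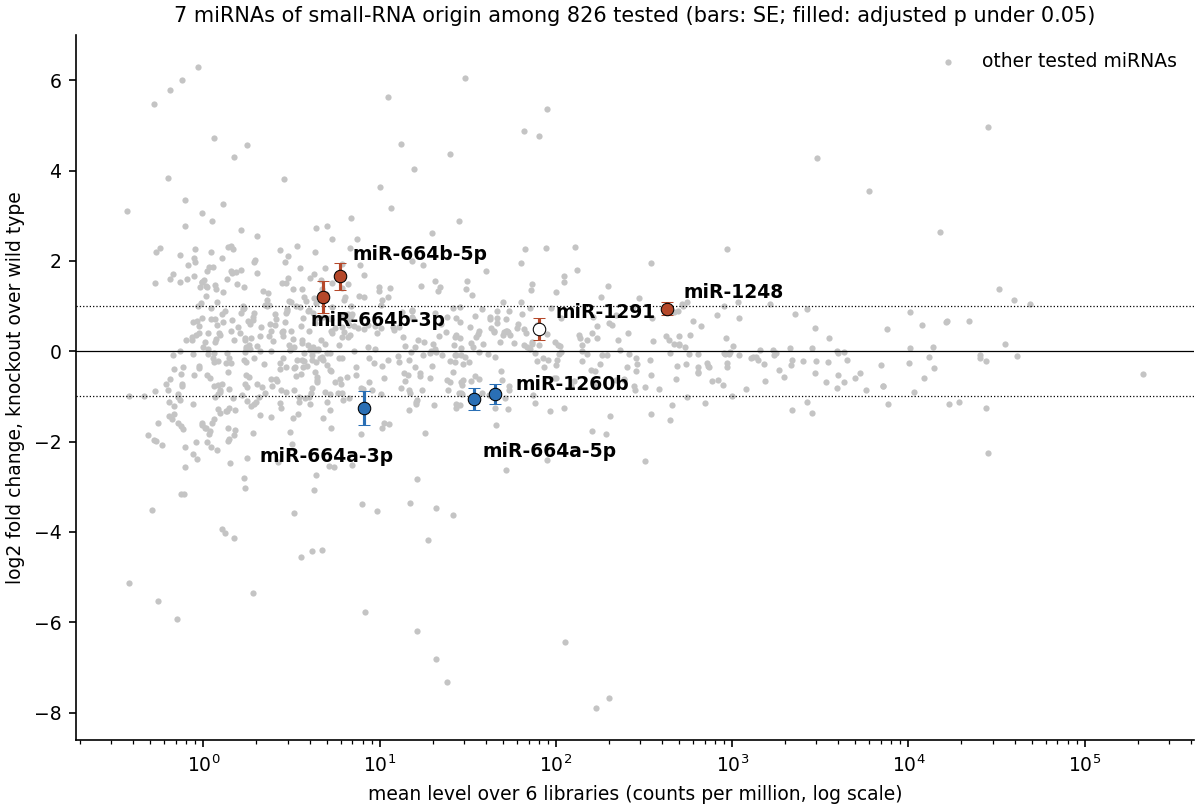
The log2 fold change of ΔTUT4/7 over WT (vertical axis) against the mean level in CPM on a log scale (horizontal axis) for the 826 tested miRNAs (grey), with the 7 miRNAs of small-RNA origin in colour and error bars of 1 SE. Dotted lines mark 2-fold changes, and 6 of the 7 are filled because their adjusted p was under 0.05, while miR-1291 is open.

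The paralogous pair of snoRNA hairpins went in opposite directions. hsa-miR-664a-5p, the more abundant arm of its hairpin, stood at 19.3, 17.1 and 30.5 CPM in ΔTUT4/7 replicates 1, 2 and 3 and at 45.3, 40.2 and 54.2 CPM in WT. The highest ΔTUT4/7 library remained below the lowest WT library. Its log2 fold change was -1.06 ± 0.24 (SE, n = 3 per strain, adjusted p = 0.00395 by edgeR). It passed the test without any 1 library, but was short of 2-fold without ΔTUT4/7 replicate 1 (-0.97), ΔTUT4/7 replicate 2 (-0.90) or WT replicate 3 (-0.94).

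hsa-miR-664a-3p, from the same hairpin, stood at 6.11, 3.95 and 4.05 CPM in ΔTUT4/7 and at 10.2, 6.53 and 17.98 CPM in WT. The groups did not overlap, although WT replicate 2 lay only just above ΔTUT4/7 replicate 1 and WT replicate 3 was far above the other WT libraries. The log2 fold change was -1.26 ± 0.38 (SE, n = 3, adjusted p = 0.0173 by edgeR), from 19 to 31 counts per ΔTUT4/7 library and 45 to 78 per WT library. The call was lost without WT replicate 3 (-0.79, adjusted p = 0.0709), without ΔTUT4/7 replicate 2 (-1.15, adjusted p = 0.0563) and without ΔTUT4/7 replicate 3 (-1.16, adjusted p = 0.0535).

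hsa-miR-664b-5p stood at 7.49, 8.11 and 11.3 CPM in ΔTUT4/7 and at 3.40, 2.26 and 3.00 CPM in WT. Every ΔTUT4/7 library held more than double the level of every WT library. The log2 fold change of 1.66 ± 0.30 (SE, n = 3, adjusted p = 0.000969 by edgeR) remained past the threshold in all 15 alternatives, between 1.35 and 1.88.

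hsa-miR-664b-3p stood at 7.88, 6.03 and 5.97 CPM in ΔTUT4/7 and at 1.59, 2.76 and 4.38 CPM in WT. The groups did not overlap, but the WT libraries spread widely, from 7 to 22 counts each. On the log2 scale the fold change was 1.19 ± 0.35 (SE, n = 3, adjusted p = 0.0153 by edgeR). Its adjusted p rose to 0.0564 without ΔTUT4/7 replicate 1, to 0.0518 without WT replicate 1 and to 0.0558 without WT replicate 2.

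**Figure D3:**
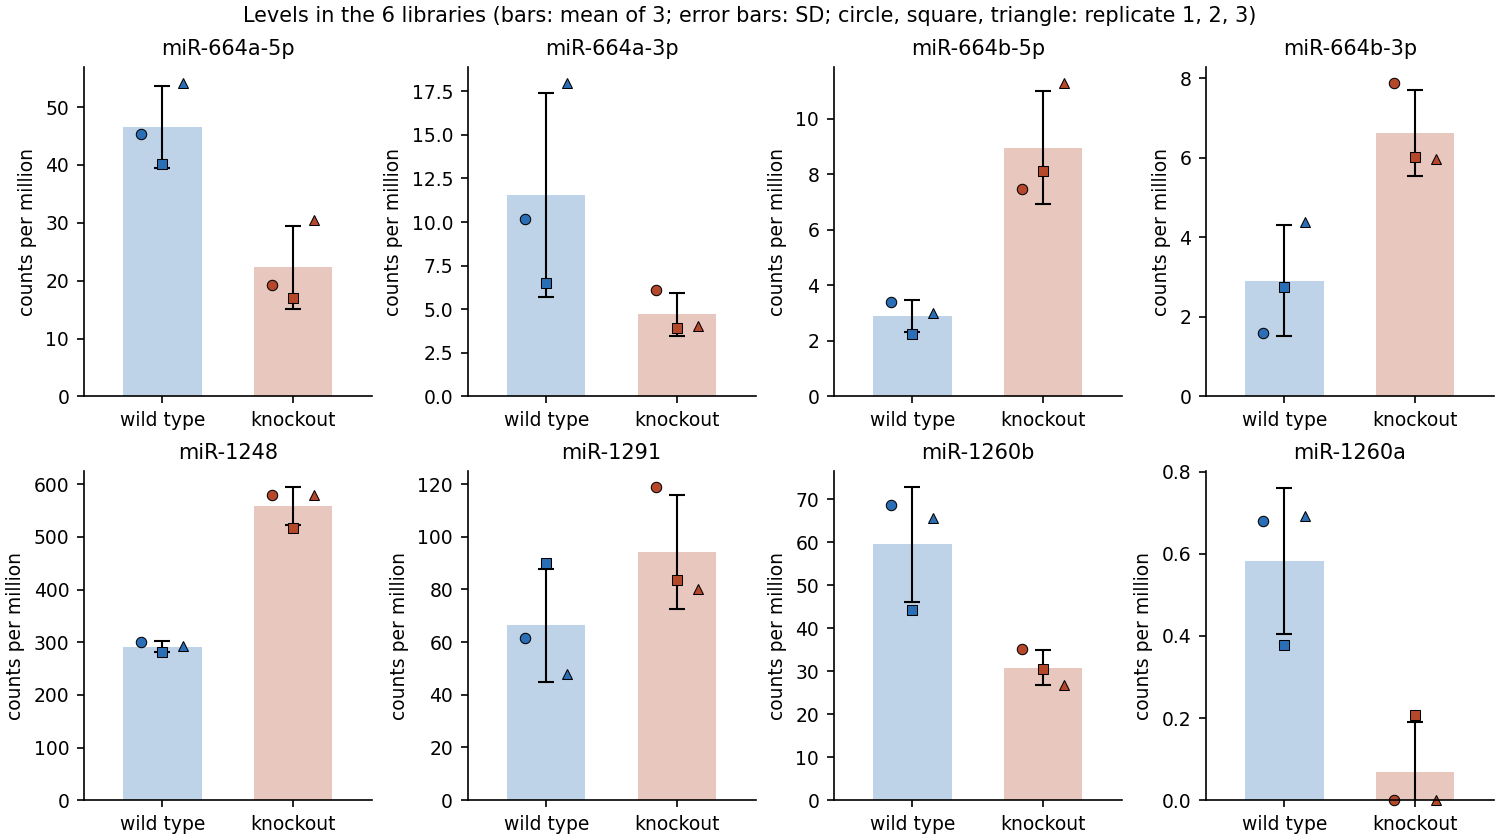
Levels in CPM of the 8 miRNAs in WT (blue) and ΔTUT4/7 (red), each panel with its own axis from 0; circles, squares and triangles are replicates 1, 2 and 3, bars the mean of 3 and error bars the SD. The strains overlap only for miR-1291, where WT replicate 2 (89.9 CPM) lies above ΔTUT4/7 replicates 2 and 3.

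Ratios within a library do not depend on its total, and were formed as log2 ratios of counts with 0.5 added. miR-664a-3p was less abundant than miR-664b-3p in all 3 ΔTUT4/7 libraries (log2 ratios of -0.36, -0.60 and -0.55) and more abundant in all 3 WT libraries (2.60, 1.22 and 2.01). The strain means differed by -2.45 without overlap. An exact 2-sided permutation test over the 6 libraries gave p = 0.1, the smallest it can give with 3 against 3, and 0.4 after Benjamini-Hochberg adjustment over the 4 ratios tested. The 5p arms, whose ratio was formed after the values were seen and not tested, behaved alike. miR-664a-5p exceeded miR-664b-5p by 1.36, 1.06 and 1.42 on the log2 scale in ΔTUT4/7 and by 3.69, 4.11 and 4.12 in WT.

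The balance of the arms of 1 hairpin overlapped between the strains in both cases. For miR-664a-3p over miR-664a-5p the log2 ratio was -2.20 ± 0.63 (SD, n = 3) in ΔTUT4/7 and -2.11 ± 0.51 in WT (exact permutation p = 0.8, adjusted 0.8). For miR-664b-3p over miR-664b-5p it was -0.42 ± 0.49 (SD, n = 3) and -0.08 ± 0.85 (exact permutation p = 0.6, adjusted 0.8). With 3 libraries a strain, the smallest p of this test is 0.1, so no difference of any size could reach 0.05.

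**Figure D4:**
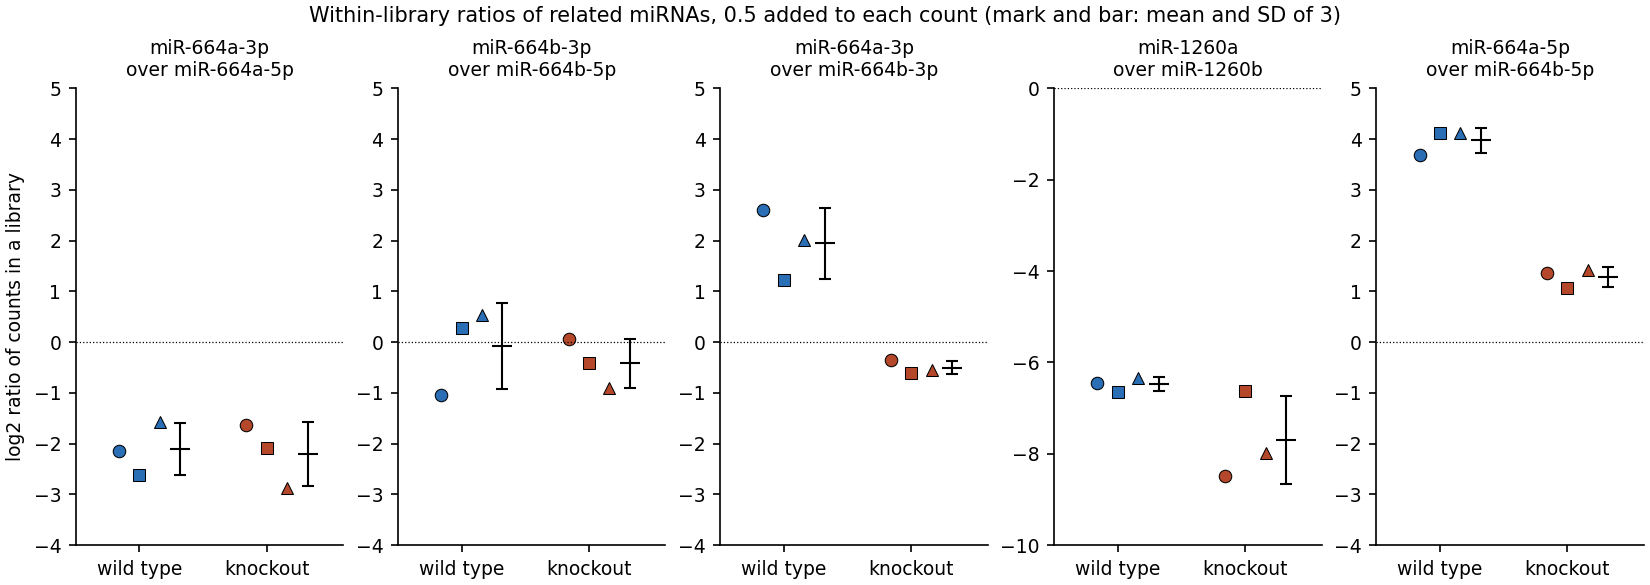
Log2 ratio of the counts of related miRNAs in each library (vertical axis, 0.5 added to each count) for WT (blue) and ΔTUT4/7 (red), with the mean and SD of 3 beside the points. The paralog ratios in the third and the last panel separate the strains, with means of 1.94 against -0.50 and 3.98 against 1.28, whereas the arm ratios in the first and second panels overlap; the axis of the miR-1260 panel has another range.

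hsa-miR-1248, from the 5′ end of SNORA81, was the most abundant of the group, with a rank of 123 among the 1000 miRNAs. It stood at 580, 516 and 580 CPM in ΔTUT4/7 and at 301, 281 and 293 CPM in WT, from 1270 to 2942 counts per library. Relative to the mean, the libraries of a strain spread less than for any other of the 8 miRNAs, and the strains were far apart. The mean was 559 ± 36.7 CPM (SD, n = 3) against 291 ± 10.2 CPM, which is 1.92 times as high. This gave a log2 fold change of 0.94 ± 0.14 (SE, n = 3, adjusted p = 0.000255 by edgeR), below the 2-fold limit of the calling rule, which it passed when let-7 and miR-98 were left out of the library totals (1.16).

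Because of its level, miR-1248 set the total of the group. It made up 74.8% to 78.5% of the counts of the 8 miRNAs in ΔTUT4/7 and 60.1% to 61.1% in WT. All 8 together came to 726 ± 55.5 CPM (SD, n = 3) in ΔTUT4/7 and 482 ± 13.3 CPM in WT. The other 7 together came to 195, 150 and 159 CPM in ΔTUT4/7 and to 191, 186 and 194 CPM in WT, values that overlap.

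The miRNAs whose log2 level ran most like that of miR-1248 over the 6 libraries were miR-503-5p (Pearson r = 0.994), let-7i-5p (r = 0.991) and miR-5682 (r = 0.991), of those with a mean of at least 10 CPM. The libraries share their strain, so each r describes the strain difference. miR-503-5p was at 1466, 1434 and 1482 CPM in ΔTUT4/7 and at 710, 636 and 722 CPM in WT. let-7i-5p lay at 53258 to 56723 CPM in ΔTUT4/7 against 1666 to 1883 CPM in WT. miR-5682 lay at 21.9 to 28.6 CPM against 0.753 to 1.36 CPM.

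hsa-miR-1291, also from the 5′ end of its snoRNA, stood at 119, 83.6 and 80.0 CPM in ΔTUT4/7 and at 61.4, 89.9 and 47.7 CPM in WT. WT replicate 2, the most deeply sequenced library, exceeded ΔTUT4/7 replicates 2 and 3, so the groups overlapped. The log2 fold change was 0.50 ± 0.25 (SE, n = 3, adjusted p = 0.114 by edgeR), which did not pass the test. Without WT replicate 2 it was 0.79 with an adjusted p of 0.0278, and with let-7 and miR-98 left out of the totals 0.72 with an adjusted p of 0.0296.

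hsa-miR-1260b, which has the sequence of a leucine tRNA end, stood at 35.1, 30.6 and 26.9 CPM in ΔTUT4/7 and at 68.7, 44.2 and 65.7 CPM in WT. All ΔTUT4/7 libraries lay below all WT libraries. The WT mean was 1.93 times the ΔTUT4/7 mean, and the log2 fold change was -0.94 ± 0.22 (SE, n = 3, adjusted p = 0.00407 by edgeR), short of the 2-fold limit. In the 15 alternatives it ranged from -1.12 to -0.72 and passed the test in each. It also passed the 2-fold limit without WT replicate 2 (-1.12, adjusted p = 0.0024 by edgeR) and without ΔTUT4/7 replicate 1 (-1.05, adjusted p = 0.00907).

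hsa-miR-1260a, which differs from miR-1260b by 1 base among the first 18, was counted 0, 1 and 0 times in ΔTUT4/7 and 3 times in each WT library, and was therefore not tested. Pooled over libraries, 1 count in ΔTUT4/7 and 9 in WT gave a ratio of WT over ΔTUT4/7 of 7.84, with an exact 95% interval of 1.09 to 343.8 that covers counting error only. The log2 ratio of miR-1260a over miR-1260b was -7.69 ± 0.96 (SD, n = 3) in ΔTUT4/7 and -6.48 ± 0.16 in WT. The strains overlapped (exact permutation p = 0.2, adjusted 0.4), and the division of reads between names that differ at a single base is uncertain. When both were summed, the log2 fold change was -0.95 with an adjusted p of 0.00377 by edgeR.

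Other miRNAs with an unusual origin were taken as lists for comparison. The table holds 4 further miRNAs that overlap an annotated snoRNA or scaRNA, the related class of small Cajal body RNAs: miR-3651 in SNORA84, miR-1843 in SCARNA3, and miR-6516-3p and miR-6516-5p in SCARNA16. Of these, 1 was decreased by at least 2-fold and none increased, against 13.6% and 16.5% of all tested miRNAs. Their median log2 fold change was -0.29. miR-1843 was at 15.2, 16.01 and 19.2 CPM in ΔTUT4/7 and at 36.9, 37.8 and 38.0 CPM in WT, a log2 fold change of -1.16 ± 0.19 (SE, n = 3, adjusted p = 0.000502 by edgeR). Its 3 ΔTUT4/7 libraries lay below all WT libraries, and the other 3 miRNAs of this list did not pass the test.

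Of 6 arms listed by name as made without DROSHA, the miR-320 names and miR-484, 4 were increased and none decreased, against 16.5% and 13.6% of all tested miRNAs, and the median was 1.13. miR-484, which is transcribed as its own short hairpin, rose from 485, 322 and 216 CPM in WT to 563, 719 and 819 CPM in ΔTUT4/7 (log2 fold change 1.04 ± 0.26 SE, n = 3, adjusted p = 0.00581 by edgeR). miR-320a-3p (1.21, adjusted p = 0.00266 by edgeR), miR-320a-5p (1.85, adjusted p = 0.00257) and miR-320d (1.48, adjusted p = 0.00183) had low levels, with means of at most 10.7 CPM in ΔTUT4/7. The abundant miR-320b and miR-320c had log2 fold changes of -0.07 and -0.04. miR-320a-3p, miR-320b, miR-320c and miR-320d begin with the same bases over the length of the trimmed reads, so such reads cannot tell them apart. The calls of miR-320a-3p and miR-320d therefore cannot be read as increases separate from the unchanged miR-320b and miR-320c. The count of 4 increased arms includes both of these calls.

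Of 14 arms listed as mirtrons, miRNAs of short introns, 12 were tested. Of these, 4 were increased and none decreased, against 16.5% and 13.6% of all tested miRNAs, and the median was 0.77. The increased arms were miR-1226-3p (1.17, adjusted p = 0.000846 by edgeR), miR-1226-5p (1.02, adjusted p = 0.0412), miR-1229-3p (2.77, adjusted p = 0.00189) and miR-1236-5p (3.07, adjusted p = 0.0194). miR-1226-3p was the only abundant one, at 302, 408 and 527 CPM in ΔTUT4/7 against 211, 179 and 159 CPM in WT. By contrast, miR-1236-5p lay at 0.985, 1.66 and 2.56 CPM in ΔTUT4/7 and at 0, 0 and 0.69 CPM in WT. miR-1236-5p entered the test only through its ΔTUT4/7 counts, and its fold change rests on few counts. The snoRNA miRNAs described above, which also lie in introns of the canonical host transcripts, were called in both directions. Both arms of miR-1226 come from the same hairpin, and with so few arms these counts do not set either list apart.

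**Figure D5:**
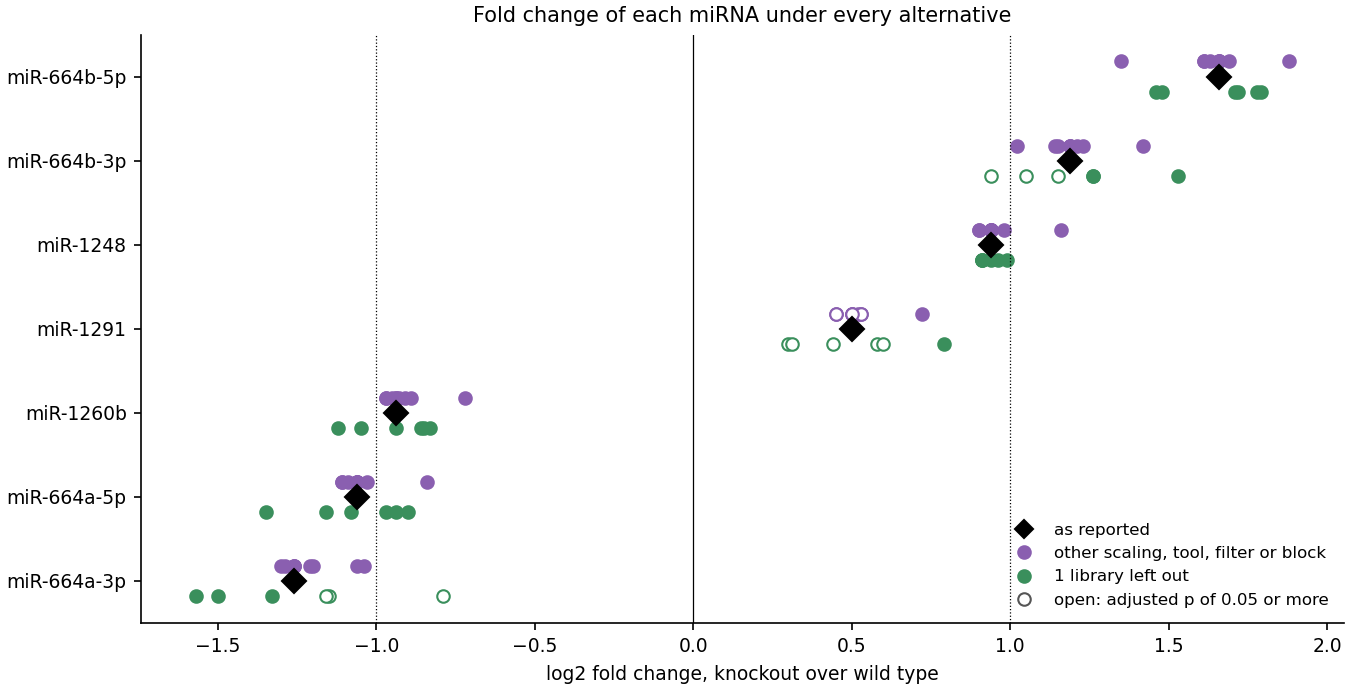
Log2 fold change of ΔTUT4/7 over WT (horizontal axis) of the 7 tested miRNAs as reported (black diamonds), under other scalings, tools, filters or the replicate block (purple) and with 1 library left out (green); open circles did not reach an adjusted p under 0.05 and dotted lines mark 2-fold changes. No fold change crosses 0, and the open circles belong to miR-664b-3p, miR-1291 and miR-664a-3p.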

How the data were processed

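Mature miRNAs of 3 ΔTUT4/7 and 3 WT libraries were sequenced from 100 ng of total RNA with the QIAseq miRNA kit. Per the labels and methods, the authors shortened the reads to 18 nt before alignment (Bowtie 1.0.0, hg38) and quantified miRBase mature miRNAs in Partek 10.0.22. What the authors deposited are estimated counts, all of them whole. The largest values of the table, those of miR-16-5p in the 3 WT libraries, are multiples of 10000. If they were rounded to that step, the WT totals, printed here as summed from the file, are uncertain by 0.0628% to 0.115%. Whether molecular identifiers collapsed the reads is not stated. The authors' deposited comparison, with means, ratios and p-values, was left unused.

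Counts were scaled to each library's total (4338558 to 7967606). edgeR 4.0.16 in R 4.3.3 (glmQLFit, glmQLFTest, normalization factors of 1) was run on the 826 miRNAs that exceeded 7 counts in some library, with Benjamini-Hochberg adjustment over all of them. A call needed an adjusted p under 0.05 and a 2-fold change, and the SE is the log2 fold change over the root of F. On simulated counts of these 826 miRNAs, 200 of them changed 4-fold, 778 passed the filter, and edgeR recovered 86% of the changed ones with 3 false calls. Changes smaller than 4-fold, like those of the 7 miRNAs, were not simulated. Ratios were tested by exact permutation. The p-values set the strain difference against the spread between these libraries, which edgeR estimates with information from all tested miRNAs.

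The miRNAs and lists were chosen with earlier results of these data known. Named were all 9 miRNAs, the called miRNAs of the comparison lists, and the 3 miRNAs most like the most abundant one. Sequences and positions came from RefSeq (GRCh38.p14), hg38 and GENCODE 44, and identities from Biopython 1.88. The alternatives were TMM factors, RLE factors, a total that omits the let-7 family and miR-98, DESeq2 1.42.0, limma 3.58.1 with a trend on log2(CPM + 1), all miRNAs unfiltered, filterByExpr, a replicate block, each library left out, and sums of miR-1260a with miR-1260b and of miRNAs whose first 18 nt are the same.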

Additional observations from a re-analysis of the deposited data

How the results depend on the processing

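Of 105 recomputed fold changes of single miRNAs (7 miRNAs, 15 alternatives each), 97 kept their direction and their side of an adjusted p of 0.05. Another 6 lost significance and 2 gained it, and none changed sign. The 2-fold limit was not part of this count. Within the 97, miR-664a-5p fell short of 2-fold in some alternatives, and miR-1248 and miR-1260b passed it in others. When let-7 and miR-98 were omitted from the totals, the median of all tested miRNAs moved by 0.22 on the log2 scale, 1 of the 8 miRNAs in place of 2 was decreased by at least 2-fold (miR-664a-5p fell short at -0.84), and 3 in place of 2 were increased, with miR-1248. Leaving out each library in turn gave 1 to 2 increased and 0 to 3 decreased miRNAs by edgeR. The count of decreased miRNAs was 0 without ΔTUT4/7 replicate 2 or WT replicate 3 (at an unadjusted p under 0.05, 1 and 0; 3 were lower in each without the 2-fold limit), 1 without ΔTUT4/7 replicate 3 and 3 without WT replicate 2, where miR-1260b joined both arms of miR-664a, and 1 was increased without ΔTUT4/7 replicate 1, WT replicate 1 or WT replicate 2. The counts over all tested miRNAs and those without a 2-fold limit moved by at most 1.5 times. The difference in the log2 ratio of miR-664a-3p over miR-664a-5p was -0.37 to 0.25 with 1 library left out; it turned from -0.09 to 0.25 without ΔTUT4/7 replicate 3 and to 0.17 without WT replicate 3.

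Libraries of different strains with the same replicate number did not deviate together (correlations of -0.130, -0.103 and -0.174 over 826 miRNAs). The labels do not say whether such libraries were prepared together, and these correlations cannot show it. With the replicate number as a block, 2 of the 8 miRNAs were again increased and 2 decreased, and the difference in miR-664a-3p over miR-664b-3p was -2.45 with an exact sign-flip permutation p of 0.25, the smallest possible. Depth limits miR-1260a, with at most 3 counts, and both arms of miR-664b in WT, with 7 to 22.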
